A study of Mus musculus with 5 samples.

Results

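The lymphatic endothelial cells of tumor and normal colon were 204 of 8491 kept cells in 5 single-cell RNA libraries, 175 of them in 4 libraries of chemotherapy-treated tumors and 29 in 1 library of normal colon. They were chosen by measured values: a cell was a member when Lyve1, Mmrn1, Flt4, Reln and Ccl21a together gave at least 3 unique molecular identifiers (UMIs, 1 per captured RNA molecule) and Pecam1, Cdh5 and Egfl7 together at least 1. Kept cells had at least 500 genes and at most 15% mitochondrial UMIs. Levels of these 8 genes are therefore a description and carry no test. All mice were labelled wild type, of C57BL/6J or mixed background per the study's methods. In 4 libraries the colon held tumors raised with azoxymethane and dextran sodium sulfate (AOM/DSS) and treated with 5-fluorouracil (5-FU) and Irinotecan, an antimetabolite and a topoisomerase inhibitor, with harvest at day 1 for replicates 1 and 2, called early, and at day 3 or day 6 for the libraries called late. The fifth library, here called normal colon stroma, came from untreated colon without tumors and from a dissociation aimed at fibroblasts, so tissue, dissociation and treatment cannot be told apart in any comparison with it.

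Lymphatic endothelial cells line the vessels that drain fluid, fat and leukocytes from the gut wall. They arise from veins under the transcription factor Prox1, answer VEGF-C through the receptor Flt4, and draw dendritic cells and T cells inwards with the chemokine Ccl21. Capillary endings are rich in the hyaluronan receptor Lyve1, and collecting vessels carry valves shaped by Foxc2, Gata2 and connexins.

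Before any comparison, the members of day 1 replicate 1 stood apart. It had 9 members, 1 cell gave 50.1% of their 110496 UMIs, and 6 of the 9 carried at least 3 UMIs of the blood vessel genes Flt1 and Plvap, against 27 of all 204 members. Members in every library also carried epithelial RNA. In all, 77 of the 204 had at least 10 UMIs over the keratins Krt8, Krt18 and Krt19 and gave 71.6% of the members' UMIs, with a median of 8158 UMIs and 7 marker UMIs per cell, while the 127 members under that limit had 2610 and 45. In normal stroma 6 of the 29 members were of this kind and gave 70.1% of its member UMIs, at a median of 3 marker UMIs. The deepest of the 6 alone gave 26.2%. Whether the 77 were lymphatic cells with free RNA, cell pairs or other cells was not tested. The deepest at day 6 had 60070 UMIs, with 329 keratin, 6 marker and 2 endothelial UMIs. Results are given for all members and, as a choice made after seeing the data, for cells with under 10 keratin UMIs. Median depth ran from 2773 UMIs per member at day 6 to 7608 in day 1 replicate 1. A single index was used for day 1 replicate 1 and for day 3, and a dual index for the other 3 libraries. Pairs of libraries shared between 4 and 41 cell barcodes, and no barcode was shared by members of different libraries.

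Lymphatic members made up between 1.20% and 3.11% of the cells in each library. They were 9 of 748 cells (1.20%) and 50 of 2403 (2.08%) at day 1, 28 of 1419 (1.97%) at day 3, 88 of 2826 (3.11%) at day 6 and 29 of 1095 (2.65%) in normal colon stroma. Exact 95% binomial intervals, which cover counting error alone, ran from 0.552 to 2.27%, 1.55 to 2.73%, 1.32 to 2.84%, 2.50 to 3.82% and 1.78 to 3.78%. Day 6 was highest among the treated libraries, while day 3 lay between the day 1 libraries, so the groups overlapped. Within the single-index pair the late share was above the early one (1.97% against 1.20%), as within the dual-index pair (3.11% against 2.08%). The late mean exceeded the early mean by 0.902 percentage points, with p = 0.667 in a two-sided exact permutation test over libraries, where 2 against 2 libraries cannot give less than 0.33. With each cell thinned to 1000 UMIs, the shares were 0.134%, 1.25%, 0.634%, 2.26% and 1.58%, with 2654 of 2826 day 6 cells and 1011 of 1095 normal cells deep enough to be counted. At a limit of 5 marker UMIs they were 0.267%, 1.71%, 1.48%, 2.76% and 2.01%, with 2 members left in day 1 replicate 1.

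Among cells gated as endothelium, day 6 differed from the other libraries. Blood endothelial cells, gated as cells with at least 3 UMIs of Pecam1, Cdh5 and Egfl7 and none of the 5 lymphatic markers, numbered 9, 57, 28, 17 and 34 in the same order. Members were 50.0%, 46.7%, 50.0%, 83.8% and 46.0% of both types together. The day 6 interval, 75.3 to 90.3%, lay above those of day 1 replicate 2, day 3 and normal stroma, and above 74.0%, the upper bound in day 1 replicate 1. This is the share of 1 library, and day 3 of the same late group did not show it. The intervals cover counting error alone. The gates were also unequal, since members needed 1 endothelial UMI and blood endothelial cells 3. Day 6 had the lowest median depth of any library in both types, at 2773 and 2347 UMIs. The part of gates and depth in the day 6 share was not tested.

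**Figure D1:**
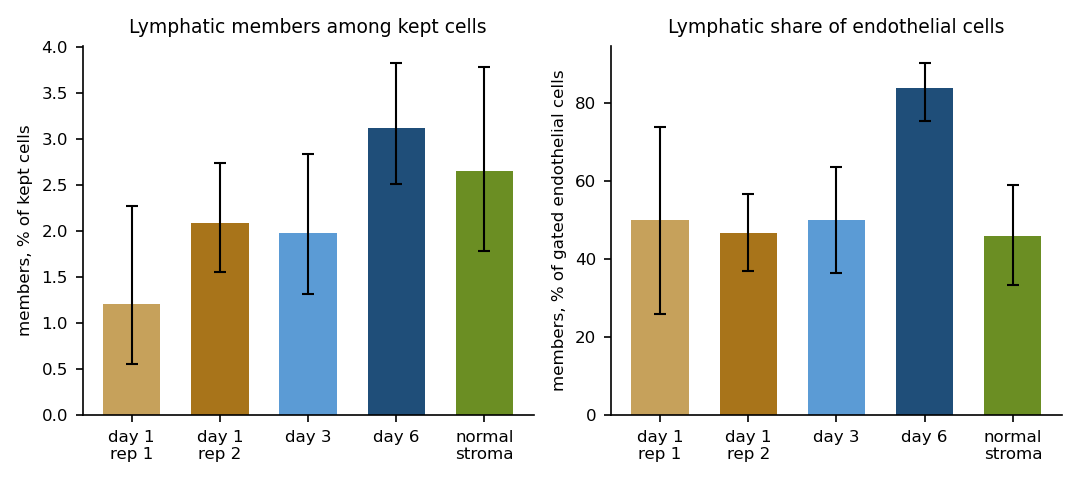
Lymphatic members as a percentage of kept cells (left) and of gated endothelial cells (right) in each library; bars are shares and error bars exact 95% binomial intervals. Day 6 had the highest share in both panels, 3.11% and 83.8%, and the other libraries had between 46.0% and 50.0% lymphatic cells among endothelium.

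Most members carried several of the 5 markers. Of the 204, 65 had all 5, 66 had 4, 26 had 3, 32 had 2 and 15 had 1, and the median member had 35.5 marker UMIs (range 3 to 269). At the limit, 28 members had exactly 3 marker UMIs, 54 cells with an endothelial UMI had 2 and stayed outside, and 39 cells with 3 or more lacked an endothelial UMI. Flt4 and Lyve1 were found together in 71.1% of members, Reln and Ccl21a in 39.7%.

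Levels are given as CPM, the UMIs of a gene summed over the members of a library and scaled to 1000000 of their UMIs, and always in the order day 1 replicate 1, day 1 replicate 2, day 3, day 6 and normal colon stroma. Lyve1, the hyaluronan receptor (GRCm38 chromosome 7, 110850607 to 110863239), stood at 634, 1536, 714, 1430.3 and 1262 CPM. Mmrn1, a multimerin of the endothelial matrix (chromosome 6, 60924976 to 60989378), stood at 109, 922, 97.3, 1212 and 1615 CPM. Flt4, the VEGF-C receptor (chromosome 11, 49609263 to 49652739), was the most even of the 5 markers, at 353, 646, 493, 447 and 515 CPM. All 3 were lower in day 1 replicate 1 than in day 1 replicate 2, and Mmrn1 was lowest in both single-index libraries.

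Ccl21a had the widest range of the 5 markers. Ccl21a, the chemokine (chromosome 4, 42772860 to 42773993), stood at 127, 1233, 311, 5560.1 and 2499 CPM, and its median over members was 0, 332, 142, 13342 and 7344 CPM per cell. Reln, a secreted glycoprotein (chromosome 5, 21884454 to 22344702), stood at 45.3, 353, 104, 182 and 45.7 CPM. Ccl21a was thus highest at day 6 and in normal stroma, while Reln was highest in day 1 replicate 2. The sum of the 5 markers was 1267, 4689, 1719.6, 8831 and 5936 CPM, against 9.09 to 42.5 CPM in columnar epithelial cells (at least 10 keratin UMIs), which should lack them.

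At least 1 UMI of Lyve1 was found in 81.4% of members, of Mmrn1 in 73.04%, Flt4 in 81.9%, Reln in 51.96% and Ccl21a in 77.5%, at a median of 3342.5 UMIs per member. In 4247 columnar cells, at a median of 5738 UMIs, the shares were 3.86%, 2.47%, 2.35%, 7.44% and 7.65%. The pan-endothelial genes of the rule, the adhesion molecules Pecam1 and Cdh5 and the secreted Egfl7, summed to 2634, 1341, 811, 863 and 834 CPM in members, with the highest value in day 1 replicate 1.

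Whether genes outside the rule set the members apart from blood endothelium was asked within libraries, with edgeR's quasi-likelihood test on summed counts and the library as a block. The members had more RNA of the lymphatic membrane proteins Pdpn and Thy1, the transcription factor Maf, the guidance ligand Sema3a and the prothrombinase Fgl2, and less of the lipoprotein Apoe and the MHC class II chain H2-Ab1. The blood cells also held more macrophage RNA in every library, and its part in the Apoe and H2-Ab1 differences was not tested. Of 5830 genes tested, 19 were called at an adjusted p (Benjamini-Hochberg) under 0.05, or 0.326%, 14 higher and 5 lower in members, and DESeq2 called 37. With cells of both types under 10 keratin UMIs, 121 of 2507 genes (4.83%) were called, 86 higher and 35 lower, and 18 of the 19 calls were kept while Saa3 was not tested. The 19 fell to 1 without day 1 replicate 2 or without day 6 and to 8 without day 3, and rose to 37 without day 1 replicate 1 and to 22 without normal stroma.

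Of 23 lymphatic identity genes that the rule did not use, 18 were tested. All 18 lay above 0, with a median log2 difference of 2.29 against 0.01 over all genes, and 6 were called: Ccl21c, Fgl2, Thy1, Pard6g, Maf and Pdpn. With under 10 keratin UMIs, 12 of 18 were called and the median was 3.21. This list, like the others below, was chosen with earlier results of these data known. These counts are therefore not an independent check of what the members are. Ccl21c is a near-identical copy of the rule gene Ccl21a and may take its reads, so its difference of 8.11 (SE 0.44, edgeR adjusted p = 4.7e-05) is not independent of the choice of cells.

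Podoplanin, Pdpn, the glycoprotein that marks lymphatic against blood endothelium, stood at 90.5, 297, 104, 88.2 and 199 CPM in members. In blood endothelial cells it stood at 13.5, 8.01, 5.19, 32.8 and 24.7 CPM. The lowest member library, day 6, lay above the highest blood library, also day 6, and the log2 difference was 3.64 (SE 0.55, edgeR adjusted p = 0.031). A UMI of Pdpn was found in 45.6% of members, 5.52% of blood endothelial cells (median 3908 UMIs) and 3.48% of columnar cells.

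Prox1, the factor that sets lymphatic fate, was not called over all members. It stood at 109, 607, 175, 171 and 170.2 CPM in members and at 542, 481, 41.5, 49.1 and 0 CPM in blood endothelial cells. Day 1 blood cells were thus at or above the members of replicate 1, and columnar cells of the same libraries held 497 and 385 CPM, against 0.298 in normal stroma. The log2 difference was 0.90 (SE 0.77, edgeR adjusted p = 1.00). With under 10 keratin UMIs it was 3.05 (SE 0.60, edgeR adjusted p = 0.0096), from 121, 925, 391, 310.2 and 555 CPM in members and 131, 133, 41.1, 52.3 and 0 CPM in blood cells. The part of epithelial RNA in the first value was not tested.

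Thy1, a surface glycoprotein, stood at 9.05, 210.5, 428, 322 and 266 CPM in members and 0, 26.03, 20.8, 0 and 8.24 CPM in blood cells, a log2 difference of 4.0 (SE 0.48, edgeR adjusted p = 0.019). Fgl2 stood at 63.4, 477, 77.9, 979.7 and 884 CPM against 13.5, 16.02, 0, 131 and 41.2 CPM, a difference of 4.03 (SE 0.49, edgeR adjusted p = 0.019). Both were higher in members of all 5 libraries, though Thy1 rested on 1 UMI in day 1 replicate 1, and Fgl2 was highest at day 6 and in normal stroma. Maf, a transcription factor that guides lymphatic development, stood at 72.4, 249, 64.9, 151 and 178 CPM against 13.5, 10.01, 0, 32.8 and 16.5 CPM, higher in members of all 5 libraries (3.72, SE 0.53, edgeR adjusted p = 0.026). Pard6g, a cell polarity protein, was higher in all 5 by 3.96 (SE 0.50, edgeR adjusted p = 0.019). The lymphatic identity genes that the keratin limit added were Prox1, Nrp2, Cp, Fxyd6, Sema3d and Nts, with log2 differences from 1.86 for the VEGF-C coreceptor Nrp2 to 4.88 for the ion transport regulator Fxyd6.

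Valve and collecting vessel genes gave 2 calls of 9 tested, with a median of 0.52. Sema3a, which repels nerves and smooth muscle from valves, stood at 289.6, 557, 97.3, 163 and 12.5 CPM in members and at 0, 28.04, 15.6, 0 and 0 CPM in blood cells (4.21, SE 0.55, edgeR adjusted p = 0.02). It was highest at day 1 and lowest in normal stroma. The adhesion receptor Adgrg3 was higher in all 5 libraries by 3.74 (SE 0.57, edgeR adjusted p = 0.031), at 90.5, 138, 71.4, 153 and 145 CPM in members. Under the keratin limit Prox1 and Nfatc1, a factor of valve formation, joined them, and Nfatc1 differed by 1.85 (SE 0.44, edgeR adjusted p = 0.028).

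The other called genes that were higher in members were Adamtsl1, Gpm6a, Emid1, D5Ertd615e, Abi3bp and Dtx1. Adamtsl1, Emid1 and Abi3bp code for matrix proteins and differed by 4.20 (SE 0.64), 3.85 (SE 0.59) and 3.14 (SE 0.45). Gpm6a, a membrane glycoprotein, differed by 4.18 (SE 0.66) and D5Ertd615e by 3.23 (SE 0.51). The edgeR adjusted p ran from 0.026 to 0.034. Dtx1, a Notch regulator outside the naming rule because day 1 replicate 1 held none, had 0, 120.3, 25.96, 125 and 149 CPM in members and 2 CPM in blood cells of day 1 replicate 2 alone (edgeR adjusted p = 0.019).

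Lower in members were Apoe, H2-Ab1, C1qb, Saa3 and Cytl1. Apoe stood at 27.2, 10.02, 25.96, 55.6 and 24.9 CPM in members and 1232, 382, 62.3, 2931 and 305 CPM in blood cells, lower in members of all 5 libraries (-4.58, SE 0.61, edgeR adjusted p = 0.02). H2-Ab1 stood at 27.2, 28.1, 25.96, 953 and 116 CPM against 1435, 150.2, 88.3, 7582 and 502 CPM (-2.92, SE 0.47, edgeR adjusted p = 0.034). C1qb, a complement chain of macrophages, differed by -4.89 (SE 0.71) but was not below at day 3, the acute phase protein Saa3 by -6.04 (SE 0.87) and the cytokine-like Cytl1 by -5.34 (SE 0.70). Saa3 and Cytl1 fall outside the naming rule. Under the keratin limit Cytl1 was at 0 in both cell types in day 1 replicate 1 and at day 3. All 8 MHC class II genes tested lay below 0, with a median of -2.39 and 1 call.

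Macrophage markers moved with these genes. All 11 macrophage markers tested lay below 0 (median -2.97, 1 call), and the 14 listed markers summed to 4644, 1025, 805, 18963 and 222 CPM in blood cells against 281, 579, 422, 972 and 70.6 CPM in members. The blood gate thus carried most macrophage RNA at day 6 and in day 1 replicate 1, and the part of this RNA in the lower values of members was not tested. Among 8 lipid genes 7 lay below 0 (median -1.24, 1 call).

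Blood endothelial genes gave no call over all cells. Of 19 tested, 17 lay below 0, with a median of -0.94. Blood cells needed at least 3 endothelial UMIs and members 1, and the part of these unequal gates in the values was not tested. Flt1, the decoy VEGF receptor of blood vessels, stood at 996, 82.2, 64.9, 34.5 and 137 CPM in members and at 244, 391, 312, 147 and 2298 CPM in blood cells. Plvap, the diaphragm protein of fenestrated capillaries, stood at 986, 126, 318, 42.2 and 208 CPM against 244, 302, 613, 328 and 3764 CPM. In day 1 replicate 1 members exceeded blood cells in both genes, and in the other 4 libraries they were below. Vwf, the platelet adhesion protein, stood at 199, 44.1, 19.5, 21.1 and 0 CPM against 217, 286, 203, 491 and 379 CPM. Under the keratin limit 5 of 19 blood endothelial genes were called lower, against 35 of all 2507 genes tested. Among the 5 were Flt1 (-2.01, SE 0.44, edgeR adjusted p = 0.019), Plvap (-1.61, SE 0.41, edgeR adjusted p = 0.041) and Vwf (-4.14, SE 0.55, edgeR adjusted p = 0.0008).

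Of 20 genes used by both vessel types, none was called over all cells, 15 lay below 0, and the median was -0.15. The part of the unequal gates was not tested here either. Kdr, the main VEGF receptor, stood at 679, 333, 84.4, 295 and 486 CPM in members and 135, 208, 129.8, 311 and 2133 CPM in blood cells (log2 difference -0.03, SE 0.56), higher in members of both day 1 libraries and lower in the other 3. Sox18, which switches on Prox1, differed by 0.00 (SE 0.45). None of 13 genes of VEGF, angiopoietin and adrenomedullin signaling was called, with 6 above and 7 below 0, and none of 11 junction genes, with a median of 0.04. Under the keratin limit the junction protein Cldn5 was higher by 2.75 (SE 0.59, edgeR adjusted p = 0.016), and the chemokine scavenger Ackr3 by 1.85 (SE 0.35, edgeR adjusted p = 0.0071). Matrix genes gave no call of 17 over all cells and 5 of 14 under the limit, against 121 of all 2507 genes tested there. The 5 included Fn1, fibronectin, higher by 2.95 (SE 0.46, edgeR adjusted p = 0.0024), and the protease inhibitor Timp2, higher by 2.55 (SE 0.40, edgeR adjusted p = 0.0025).

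Ramp2, Ptprb and S1pr1 were among the most abundant listed genes of vessel signaling and trafficking. Ramp2, the partner of the adrenomedullin receptor, stood at 932, 184, 668, 311 and 66.4 CPM in members, 135, 116, 493, 246 and 577 CPM in blood cells and 5.68, 4.70, 20.7, 5.13 and 2.39 CPM in columnar cells. Ptprb, the phosphatase that restrains Tie2, stood at 1023, 225, 97.3, 102 and 58.1 CPM in members and 135, 385, 213, 262 and 1087 CPM in blood cells. S1pr1, the receptor for sphingosine-1-phosphate, stood at 498, 184, 143, 209 and 95.5 CPM in members and 149, 104, 177, 98.3 and 329 CPM in blood cells. For all 3, members exceeded blood cells in day 1 replicate 1 and lay below them in normal stroma, and none was called (log2 differences 0.29, -1.0 and 0.28, SE 0.67, 0.82 and 0.48).

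Some listed genes were not particular to vessels in these libraries. The tetraspanin Cd9 stood at 842, 1477, 1687, 1921 and 1063 CPM in members and 884, 1145, 1360.2, 1549.8 and 970.1 CPM in columnar cells, and the valve integrin Itga9 at 281, 656, 305, 232 and 735 CPM and 130.1, 381, 95.3, 223 and 589.8 CPM. The junction protein Tjp1 followed the library rather than the cell type, at 154, 1896, 32.4, 537 and 2204 CPM in members and 103, 2462, 43.6, 588 and 3087 CPM in columnar cells, lowest in both single-index libraries. Apln, the tip cell ligand, was found in members of day 1 alone, at 507 and 12.03 CPM, while blood cells held 40.6, 172, 129.8, 0 and 107 CPM. None of the 13 MHC class I, 17 interferon, 13 p53, 15 cell cycle, 15 NF-kB and 20 immediate early and heat shock genes tested was called between members and blood cells.

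Signals that lymphatic vessels send to other cells were mostly thinly counted. None of 10 secreted niche genes was called (median -0.36) and none of 15 genes of leukocyte trafficking (median -0.38). Rspo3, a Wnt amplifier that feeds intestinal stem cells, was too low to be tested and stood at 0, 22.1, 6.49, 36.4 and 20.8 CPM in members, at 0 in blood endothelial cells of all 5 libraries and at no more than 0.895 CPM in columnar cells. A UMI of Rspo3 was found in 13.2% of members and 0.306% of columnar cells.

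Ackr2, a decoy receptor that lymphatic vessels use to clear inflammatory chemokines, stood at 27.2, 66.2, 6.49, 49.8 and 66.4 CPM in members and 0, 2, 10.4, 0 and 24.7 CPM in blood cells (2.54, SE 0.88, edgeR adjusted p = 0.72). Members lay above blood cells in 4 libraries and below them at day 3. The survival cytokine Il7, also too low to be tested, stood at 18.1, 22.1, 12.98, 46.01 and 58.1 CPM in members and 0, 6.01, 5.19, 0 and 0 CPM in blood cells, but at 29.3 CPM in columnar cells at day 6. Madcam1, the gut-homing ligand of venules, was lower in members under the keratin limit by -6.93 (SE 0.94, edgeR adjusted p = 0.0032).

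**Figure D2:**
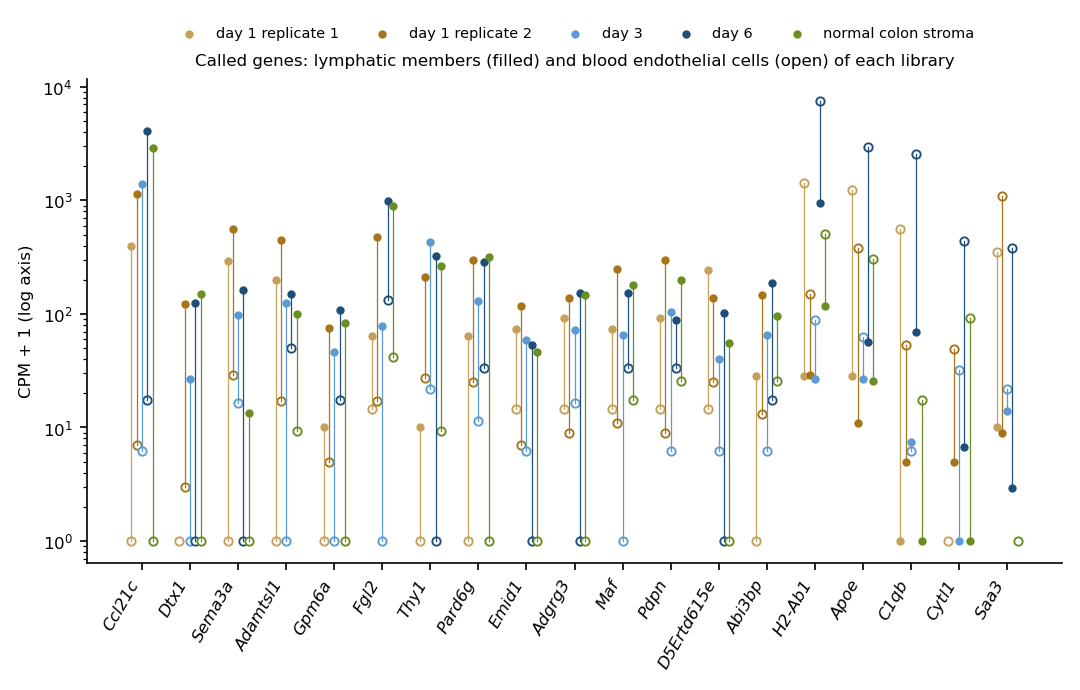
Level of the 19 called genes in lymphatic members (filled) and blood endothelial cells (open) of each library, joined by a line, as CPM + 1 on a log axis. The filled points of the 14 higher genes lie above the open ones in all 5 libraries, except that Dtx1 was 0 in both types in day 1 replicate 1, and they lie below them for H2-Ab1 and Apoe in all 5.

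Treated tumors were then set against normal colon stroma. The immediate early genes Fos, Fosb, Egr1 and Atf3, of a class that is transcribed within minutes of a stimulus or of tissue handling, were lower in members from tumors, as was smooth muscle actin. Of 7634 genes tested, edgeR called 14, or 0.183%, all lower in tumors, DESeq2 called 64, and the lone normal library was assumed to vary like the treated ones. Without day 3 the 14 fell to 4, without day 1 replicate 1 they rose to 83, without day 1 replicate 2 to 42 and without day 6 to 91. Under the keratin limit 42 of 3125 (1.34%) were called, 36 lower and 6 higher, and 8 of the 14 were kept of 11 tested.

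Of 20 immediate early and heat shock genes tested, 19 lay below 0, with a median log2 difference of -2.42 against 0.15 over all genes, and 4 were called (8 of 20 under the keratin limit). Fos stood at 72.4, 170.4, 266 and 259 CPM in members from tumors and at 4416 CPM in normal stroma (-4.63, SE 0.74, edgeR adjusted p = 0.037). Egr1 stood at 18.1, 24.1, 38.94 and 26.8 CPM against 1403 CPM (-5.82, SE 0.64, edgeR adjusted p = 0.004). No treated library came near the normal one for either gene. Atf3, a stress-induced factor, differed by -5.71 (SE 0.78, edgeR adjusted p = 0.016) and Fosb by -4.54 (SE 0.66, edgeR adjusted p = 0.022). Klf2, the factor that flow induces in endothelium, stood at 371, 184, 376 and 65.2 CPM against 648 CPM and was not called over all members (-1.56, SE 0.83, edgeR adjusted p = 0.68). Under the keratin limit Klf2 was called lower in tumors (-2.74, SE 0.69).

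The same genes were high in other cells of the normal library. The list summed to 3819, 4039, 5879, 3426 and 21962 CPM in members, to 4102, 3793, 5525, 5093 and 35579.6 CPM in blood endothelial cells and to 4369.9, 3458, 4873, 3735 and 21783 CPM in columnar cells. Fos alone stood at 7075 CPM in blood endothelial cells and 4174 CPM in columnar cells of normal stroma. The normal library thus lay above every treated library in each of the 3 cell types, and the part of its dissociation was not tested.

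**Figure D3:**
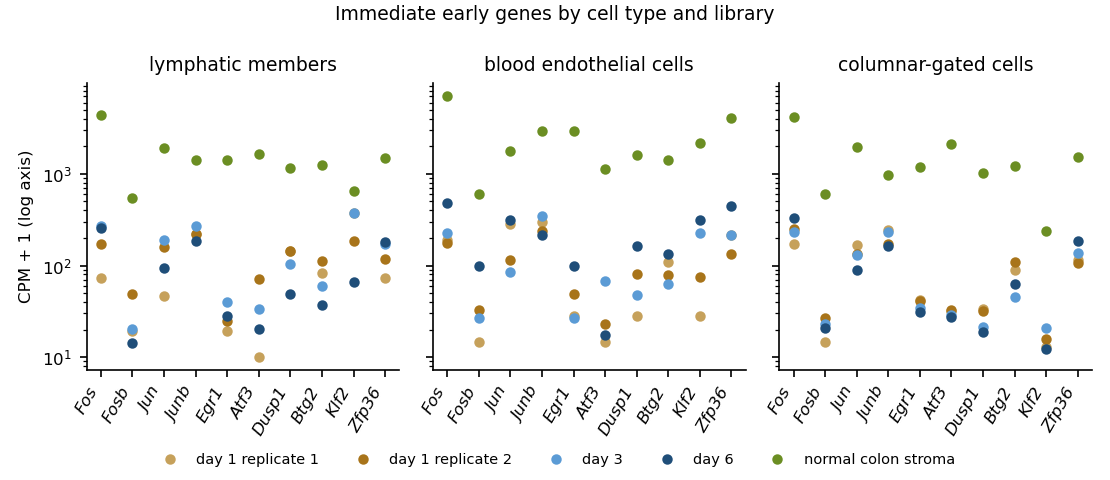
Level of 10 immediate early genes in lymphatic members (left), blood endothelial cells (middle) and columnar-gated cells (right) of each library, as CPM + 1 on a log axis. Normal colon stroma lies above every treated library for each gene in each cell type, with Fos at 4416 CPM in its members.

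Of the other called genes, Btg2 and Gdf15, both targets of p53, differed by -4.30 (SE 0.65, edgeR adjusted p = 0.024) and -4.84 (SE 0.67, edgeR adjusted p = 0.016). They were the calls among 15 p53 targets tested, whose median was 0.41, and Cdkn1a, the cell cycle inhibitor, stood at 661, 742, 1324 and 366 CPM in tumors against 324 CPM. Under the keratin limit the 7 p53 targets tested had a median of -0.76. Has1, a hyaluronan synthase, stood at 0, 14.03, 6.49 and 5.75 CPM against 295 CPM (-5.29, SE 0.70, edgeR adjusted p = 0.016). Tnfaip6, which binds hyaluronan, stood at 0, 2, 0 and 1.92 CPM against 237 CPM (edgeR adjusted p = 0.0036). Hbegf, a growth factor, differed by -3.93 (SE 0.61, edgeR adjusted p = 0.028), falls outside the naming rule, and stood at 1039.7 CPM in columnar cells of normal stroma. Edn2 and Mptx1 stood at 378 and 780.4 CPM in normal members but also at 269 and 3469 CPM in its columnar cells. Rps18-ps3, a processed pseudogene that can share reads with its parent, stood at 2034 CPM in members and 2084 CPM in columnar cells of that library and is uncertain, and C330021F23Rik differed by -4.27 (SE 0.64).

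Mesenchymal RNA stood higher in the normal members. Acta2, smooth muscle actin, stood at 45.3, 26.1, 38.94 and 36.4 CPM in tumors against 477 CPM (-3.88, SE 0.57, edgeR adjusted p = 0.024). The pericyte and smooth muscle list summed to 63.4, 86.2, 77.9, 82.4 and 843 CPM in members, and the fibroblast list to 453, 1207, 824, 531 and 1602 CPM. Over all members 1 of 4 pericyte and smooth muscle markers and 0 of 7 fibroblast markers were called. Under the keratin limit 5 of 7 fibroblast markers and 3 of 4 pericyte and smooth muscle markers were called lower in tumors, against 36 of all 3125 genes tested. In the treated libraries alone, 1 fibroblast marker and 0 pericyte and smooth muscle markers passed the filter on low counts under that limit. Most of these markers thus entered the test only through the normal library, so their direction was largely set in advance. Their calls are given as a description. The part of fibroblast and muscle RNA in these differences was not tested.

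None of 19 lymphatic identity genes was called between tumor and normal members, with a median of -0.22, and none of 11 valve genes, with a median of 0.72. Over all members, Prox1, Pdpn, Thy1 and Fgl2 stood within the range of the treated libraries in normal stroma. Prox1 still did under the keratin limit, but normal members lay above every treated library for Pdpn (80.4, 519, 163, 173 and 652 CPM), Thy1 (0, 364, 782, 822 and 888 CPM) and Fgl2 (40.2, 806, 228, 2626 and 2941 CPM). Then 14 of 18 identity genes lay below 0 (median -0.99 against 0.21 over all genes), the valve median was -0.44, and again none was called.

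Krt14 and Krt6a were among the genes called higher in tumors under the keratin limit and are named here after their values were seen. These keratins of squamous epithelium were at 0 in normal members and not called over all members, where Krt14 stood at 163, 1730.0, 545 and 717 CPM in tumors. Columnar cells of the tumors held 540.3, 927, 708 and 2365 CPM of Krt14, and the part of this epithelial RNA was not tested. Cell cycle genes had a median of 1.94 over 20 tested, without a call, with Top2a, the topoisomerase of dividing cells, at 244, 44.1, 143, 309 and 4.15 CPM. The list summed to 2552, 760, 1823, 1927 and 805 CPM in members, so day 1 replicate 2 lay below normal stroma. Under the keratin limit 5 of the genes were tested, with a median of 2.52 and no call.

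Whether members changed between early and late treatment was asked over the 4 treated libraries. Genes of MHC class I and II stood highest at day 6 and basement membrane genes highest in day 1 replicate 1, and no gene passed the test. None of 6702 genes was called by edgeR (0%), 502 had an unadjusted p under 0.05, and DESeq2 called 32, 26 higher and 6 lower in late libraries. Without day 1 replicate 2 edgeR called 75, without day 3 it called 6 and without day 6 it called 1. With library structure (single or dual index) as a block it called 0, and under the keratin limit 0 of 2229. On simulated counts with log2 changes of 2, edgeR called 143 of 184 changed genes at a dispersion (spread between libraries) of 0.05. At a dispersion of 0.2 it called 0 of 179. The absence of calls therefore does not show that no gene changed.

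MHC class I genes present peptides to CD8+ T cells. Of 12 tested, 11 lay above 0, with a median log2 difference of 1.69 against 0.00 over all genes. H2-K1 stood at 570.2, 521, 1538 and 2983 CPM in treated members and 822 CPM in normal stroma (2.23, SE 0.64, edgeR adjusted p = 0.58), and H2-D1 at 715, 539, 1376 and 2914 and 805 CPM. Both late libraries lay above both early ones for H2-K1 and H2-D1, whereas B2m, the shared light chain, stood at 1122, 385, 591, 2878 and 996 CPM and overlapped. The list was also higher in both late libraries in the other cells. It summed to 3846, 2963, 6229.6, 12223 and 3864 CPM in members, 3818, 2639, 6325, 14083 and 10797 CPM in blood cells and 3512, 2410.3, 5429, 11238 and 2619.9 CPM in columnar cells. Under the keratin limit 7 of 7 MHC class I genes tested lay above 0, with a median of 1.30. All 10 columnar epithelial markers tested in members lay above 0 as well, with a median of 1.33, and the part of epithelial RNA was not tested.

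MHC class II was highest at day 6. The 8 listed genes summed to 317, 164, 454, 3913 and 481 CPM in members, and to 201, 221, 750, 2849 and 777 CPM under the keratin limit. Day 3 thus lay above both day 1 libraries in the sums. H2-Aa stood at 90.5, 22.1, 77.9, 1069.8 and 91.3 CPM in members and at 85.5, 60.4, 82.6, 1348 and 107 CPM in columnar cells, and H2-Eb1 at 118, 40.1, 97.3, 794 and 53.96 CPM in members. Over all members, day 3 lay within the day 1 libraries for both genes. All 4 MHC class II genes tested lay above 0, with a median of 3.14, and none was called. Under the keratin limit all 4 tested lay above 0 as well, with a median of 3.38, again without a call. All 12 interferon response genes tested lay above 0, with a median of 0.90, and the transmembrane protein Ifitm3 stood at 1991, 1937, 1505, 2947 and 706 CPM with overlapping groups.

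Vessel growth and matrix genes lay mostly below 0, again without a call. Of 12 genes of VEGF, angiopoietin and adrenomedullin signaling, 11 lay below 0 (median -1.58), and of 17 basement membrane and matrix genes 15 did (median -0.83). Col4a1, a chain of the basement membrane collagen, stood at 2172, 962, 623, 307 and 278 CPM, and Sparc, a matrix glycoprotein, at 7349, 1022, 1376, 316 and 610.2 CPM. Col4a1 was lower in both late libraries than in both early ones, and Sparc was not, with day 3 above day 1 replicate 2. Leaving out 1 library moved the Sparc difference of -2.11 (SE 1.06) to between -3.53 and -0.03. Blood endothelial genes moved with these lists: 14 of 17 lay below 0 (median -0.90), and the list summed to 9204, 2414, 2725, 4738 and 2412 CPM in members, highest in day 1 replicate 1, where most members carried Flt1 and Plvap. Their part in the vessel and matrix values was not tested. Among lymphatic identity genes 8 lay above and 11 below 0, with a median of -0.31.

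**Figure D4:**
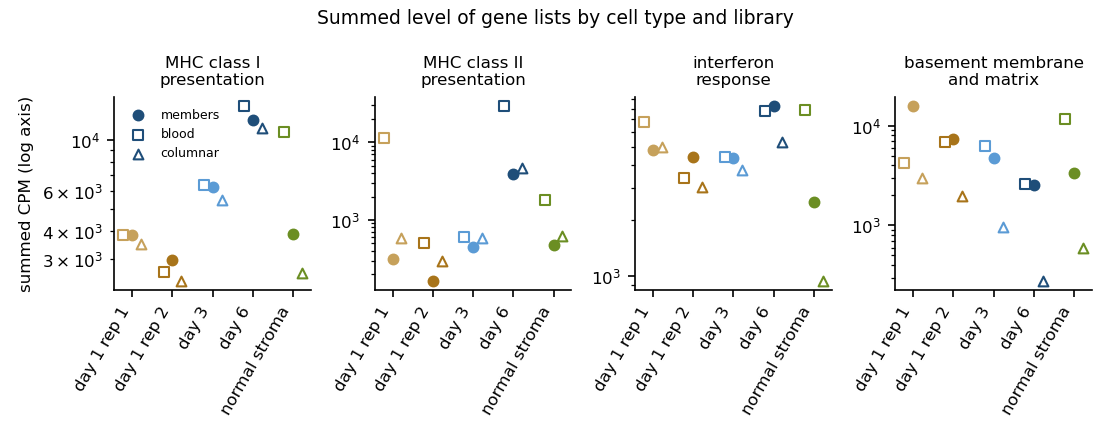
Summed CPM of 4 gene lists on log axes in lymphatic members (filled circles), blood endothelial cells (squares) and columnar-gated cells (triangles) of each library. MHC class I reached 12223 CPM and MHC class II 3913 CPM in day 6 members, and basement membrane and matrix genes were highest in day 1 replicate 1 at 15666 CPM.

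The genes with the smallest p between late and early are given as values. Higher in late members were Cyp2f2 (0, 2, 149 and 263 CPM, unadjusted p = 5.1e-05, edgeR adjusted p = 0.33), Cbr2 (9.05, 2, 162 and 261 CPM), Thbs4 (9.05, 2, 221 and 109 CPM), Gsdmc4 (27.2, 10.02, 156 and 383 CPM) and Dmbt1 (172, 68.2, 1486 and 1612 CPM). In columnar cells too, both late libraries lay above both early ones for Cyp2f2, at 12.5, 0.567, 245 and 744 CPM, and for Dmbt1, at 821, 474, 1787 and 1939 CPM. Lower were Ddx3y, Kcnb2 (163, 92.2, 6.49 and 3.83 CPM), Spp1 (109, 202, 12.98 and 1.92 CPM), Eif2s3y and Hba-a2 (235, 3041, 19.5 and 34.5 CPM). Ddx3y and Eif2s3y lie on the Y chromosome and were at 0 in members of both late libraries, where Xist, the transcript of the inactive X, stood at 19.5 and 93.9 CPM against 0 in both early ones. The day and the sex of the animals cannot be told apart. Hemoglobin RNA differed among libraries too, and the 10 erythrocyte and platelet markers summed to 489, 9153, 169, 362 and 12.5 CPM in members and 3007, 5506, 889, 1419.9 and 8.95 CPM in columnar cells.

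Whether this change differed from that of blood endothelial cells was asked by an interaction term. None of 5433 genes was called by edgeR (0%), 120 had an unadjusted p under 0.05 and DESeq2 called 1. On simulated counts with log2 changes of 2, edgeR called 19 of 187 changed genes at a dispersion of 0.05 and 0 of 187 at 0.2. This test could thus call few changes of that size. Leaving out 1 library gave 27 calls without day 1 replicate 1 or day 3, 15 without day 1 replicate 2 and 3 without day 6. The smallest p belonged to Mmp10, a protease (edgeR adjusted p = 0.14), at 0, 6.01, 71.4 and 1.92 CPM in treated members and 81.2, 445, 5.19 and 0 CPM in blood cells, where 1 library per type held most of it. Jchain, Sprr2a1, Saa1 and Sprr2a2 followed in that direction and Psca, Cnfn, Sprr2d, Ackr1 and Madcam1 in the other. Ackr1, the chemokine receptor of venules, stood at 281, 86.2, 0 and 72.9 CPM in members and 13.5, 116, 343 and 933 CPM in blood cells, and was not called over all libraries (edgeR adjusted p = 1.00), though 3 of the 4 fits without 1 library called it (edgeR adjusted p from 0.0078 to 0.46) and DESeq2 gave an adjusted p of 0.064. Of the VEGF, angiopoietin and adrenomedullin genes 11 of 12 lay below 0, with a median of -1.61 against 0.04 over all genes, and none was called. Vessel genes in general lay the same way, with 13 of 16 blood endothelial genes (median -1.45) and 17 of 20 genes of both vessel types (median -1.34) below 0, and the part of the blood vessel RNA in day 1 replicate 1 members was not tested.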

How the data were processed

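Single cells were encapsulated by inDrop and the authors deposited, per the labels and the study's methods, 1 table of raw UMI counts per library, made with dropEst on reads aligned to GRCm38. No normalization was applied to the counts. Groups came from the sample labels. The members and the gene lists were chosen with earlier results of these data known.

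Cells with at least 500 genes and at most 15% mitochondrial UMIs were kept, giving 748 to 2826 cells and 5124405 to 16786230 UMIs per library. No doublets were removed. In all, 49 gene symbols that a spreadsheet had turned into dates were left out of tests. Counts were summed per library and cell type over at least 5 cells, and genes passing edgeR's filter on low counts were tested with edgeR 4.0.16 (R 4.3.3), TMM normalization, the quasi-likelihood test and Benjamini-Hochberg adjustment at 0.05. In the comparison of members with blood endothelial cells, the library was a block. The labels do not say that libraries came from separate animals, so p-values measure the spread between libraries, which may be technical. Standard errors belong to the log2 differences. Shares were compared with an exact permutation test in scipy 1.17.1. All tests were two-sided.

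Genes were named by rule: called list members, called genes with the largest changes, at least 20 counts and the same direction in every library or groups that did not overlap, the most abundant members of each list, and, with no call, the 5 smallest p in each direction. Prox1, Flt1, Plvap, Vwf, Rspo3, Ackr2, Il7, Krt14, Madcam1, Xist and the genes called only under the keratin limit were added with their values known. The called genes Hbegf, Saa3, Cytl1, Abi3bp and Dtx1 fell outside the rule. Coordinates are those of GENCODE vM21 on GRCm38. The scripts were tested on simulated data. Alternatives were DESeq2 1.42.0, other scaling, other filters, other limits of the rule, and each library left out.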

Additional observations from a re-analysis of the deposited data

How the results depend on the processing

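The late minus early difference in the share of members was above 0 under every alternative tried, from 0.452 with under 10 keratin UMIs to 1.13 percentage points with at least 5 marker UMIs, and from 0.331 to 1.47 without 1 library. Counts of calls changed more. Between late and early, 0 calls became 32 with DESeq2 and 119 without a filter on low counts, and ranged from 0 to 75 without 1 library. Between tumors and normal stroma, 14 calls became 64 with DESeq2, 211 without a filter, 42 at 5 marker UMIs, 83 with at least 10 cells per sum, 71 with early and late as separate groups and 110 in the dual-index libraries, and, as choices made after seeing the data, 42 under 10 keratin UMIs and 19 with at least 2 markers. They ranged from 4 to 91 without 1 library. Between members and blood endothelial cells, 19 calls became 37 with DESeq2, 183 without a filter, 72 at 5 marker UMIs, 37 with at least 10 cells per sum, 6 without the library block, 29 with blood cells of at most 1 marker UMI and 121 under 10 keratin UMIs, and ranged from 1 to 37 without 1 library. For the interaction, 0 calls became 1 with DESeq2 and 18 without a filter, and ranged from 3 to 27 without 1 library. The 5 UMI limit and the minimum of 10 cells both leave out day 1 replicate 1, which by itself gave 83 and 37 calls in the comparisons with normal stroma and blood endothelial cells. The cause of the other changes was not tested.

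Among the genes called, or with the smallest p where none was called (10, 14, 19 and 10 genes in the 4 comparisons), none reversed its direction under the alternatives run. Other named genes, not called, did so without 1 library, as Fgl2 in the interaction (-1.46 to 2.95). Of the 288 values of the 19 genes called between members and blood endothelial cells, 54 lost their call, and of the 188 values of the 14 genes called between tumors and normal stroma, 14 did. Day 1 replicate 1 rests on 9 members and the normal group on 1 library, which limits every comparison that uses them. Early and late libraries could not be paired by label, because the labels number the day 1 libraries alone and the other libraries are 1 per day or tissue. Only the index structure could serve as a block between late and early, with 0 calls.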

Other observations

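Members with keratin RNA carried Pdpn, Thy1 and Fgl2, lymphatic genes outside the rule, as well as Ccl21c, which is not independent of the rule, and Prox1, which columnar cells also carried. A UMI of Pdpn was found in 42.9% of the 77 members with at least 10 keratin UMIs and of Prox1 in 48.1%, and Ccl21c, Thy1 and Fgl2 in 50.6%, 45.5% and 51.9%, at a median of 8158 UMIs. In the 127 other members these shares were 47.2%, 56.7%, 85.0%, 62.2% and 73.2%, at 2610 UMIs, and the differences were not tested. In the 6 such members of normal stroma, with a median of 21772 UMIs and 3 marker UMIs, Ccl21c and Thy1 were found in none. Of the 15 members with a single marker, 4 had Lyve1, 4 Flt4, 3 Reln, 2 Mmrn1 and 2 Ccl21a.

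Prox1 was not a lymphatic transcript alone in these libraries. A UMI was found in 25.2% of columnar cells and 26.9% of blood endothelial cells against 53.4% of members, and the columnar level was 497 CPM in day 1 replicate 1 and 15.5 CPM at day 6. Adgrg3 was found in 1.77% of columnar cells, 5.52% of blood endothelial cells and 48.5% of members, and Cp, which codes for ceruloplasmin, in 8.64%, 14.5% and 68.1%. Median depths were 5738, 3908 and 3342.5 UMIs.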
